A study of Mus musculus with 12 samples.

Results

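Insulin-like growth factor 1 (Igf1), its receptor Igf1r and the IGF binding protein genes Igfbp2, Igfbp3, Igfbp4, Igfbp5, Igfbp6 and Igfbp7 were examined for H3K27ac and H3K27me3 in mesenchymal stem cells (MSCs) of young and old mice. These 8 of 21938 protein-coding genes were chosen by name. A region of either mark counted for a gene when it overlapped the gene body of the GENCODE annotation or the 50 kb on either side of it. This gave 27 of 31617 H3K27ac regions and 17 of 28047 H3K27me3 regions. Of these, 4 H3K27ac regions and 1 H3K27me3 region lay in the windows of both Igfbp2 and Igfbp5, which are neighbours on chromosome 1.

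IGF1 is a secreted hormone that binds the IGF1 receptor, a tyrosine kinase, and drives growth, survival and differentiation in many tissues, the skeleton among them. IGF binding proteins carry IGFs outside the cell and either hold them away from the receptor or deliver them to it. Stromal cells of bone both secrete IGF1 and release several of these binding proteins. H3K27ac is placed at active promoters and enhancers, whereas H3K27me3 is placed on the same lysine by Polycomb repressive complex 2 and is found over silenced developmental genes.

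Both marks were mapped by CUT&RUN, in which a nuclease tethered to an antibody cuts out the DNA around the mark. Each group held 3 libraries per mark, from MSCs of mice aged 3 to 5 months (young) or 18 to 22 months (old). All cells were kept at 2% O2 in αMEM, and the bead-bound cells of a sample were split between the tubes of the antibodies. No genotype, strain or sex is given in the labels, and nothing says whether the samples of a group came from separate animals, so the p-values measure only the spread between these samples.

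Library sizes were worked back from the deposited values, with the smallest value of a library taken as 1 read and the divisor taken as 0.5 kb. On that basis the H3K27ac libraries held between 2750953 and 5541429 reads and the H3K27me3 libraries between 3622108 and 9947515. Old replicate 2 was the shallowest for both marks. H3K27ac lay within 1 kb of a transcription start site (TSS) of 10 of 10 stromal marker genes, of 1 of 6 blood markers (Csf1r) and of 1 of 4 endothelial markers (Pecam1). Values below are scaled signals: the reads of a region relative to all reads of its library (RPM), divided by a constant taken as 0.5 kb. They were then divided by a median-ratio factor that centres the libraries of a mark on each other. A scaled signal therefore grows with the length of a region, and levels of a mark in different genes were compared only per kb of region. Without the median-ratio factor the median of all regions lay at a log2 difference (old minus young) of -0.12 for H3K27ac and -0.13 for H3K27me3, so changes are given relative to the median region.

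The members fell into distinct arrangements of the marks. At the TSS, taken with 1 kb on either side, Igf1r, Igfbp4, Igfbp6 and Igfbp7 carried H3K27ac only, as did 44.6% of 21851 protein-coding genes. Igf1, Igfbp2 and Igfbp5 carried both marks, a state found at 9.02% of all genes. Igfbp3 carried H3K27me3 only, as did 24.9% of all genes, and no member carried neither mark. With 5 kb on either side, Igf1r and Igfbp4 moved to the group with both marks, because an H3K27me3 region ended 1.83 kb upstream of the Igf1r TSS and another ended 2.24 kb upstream of the Igfbp4 TSS.

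**Figure D1:**
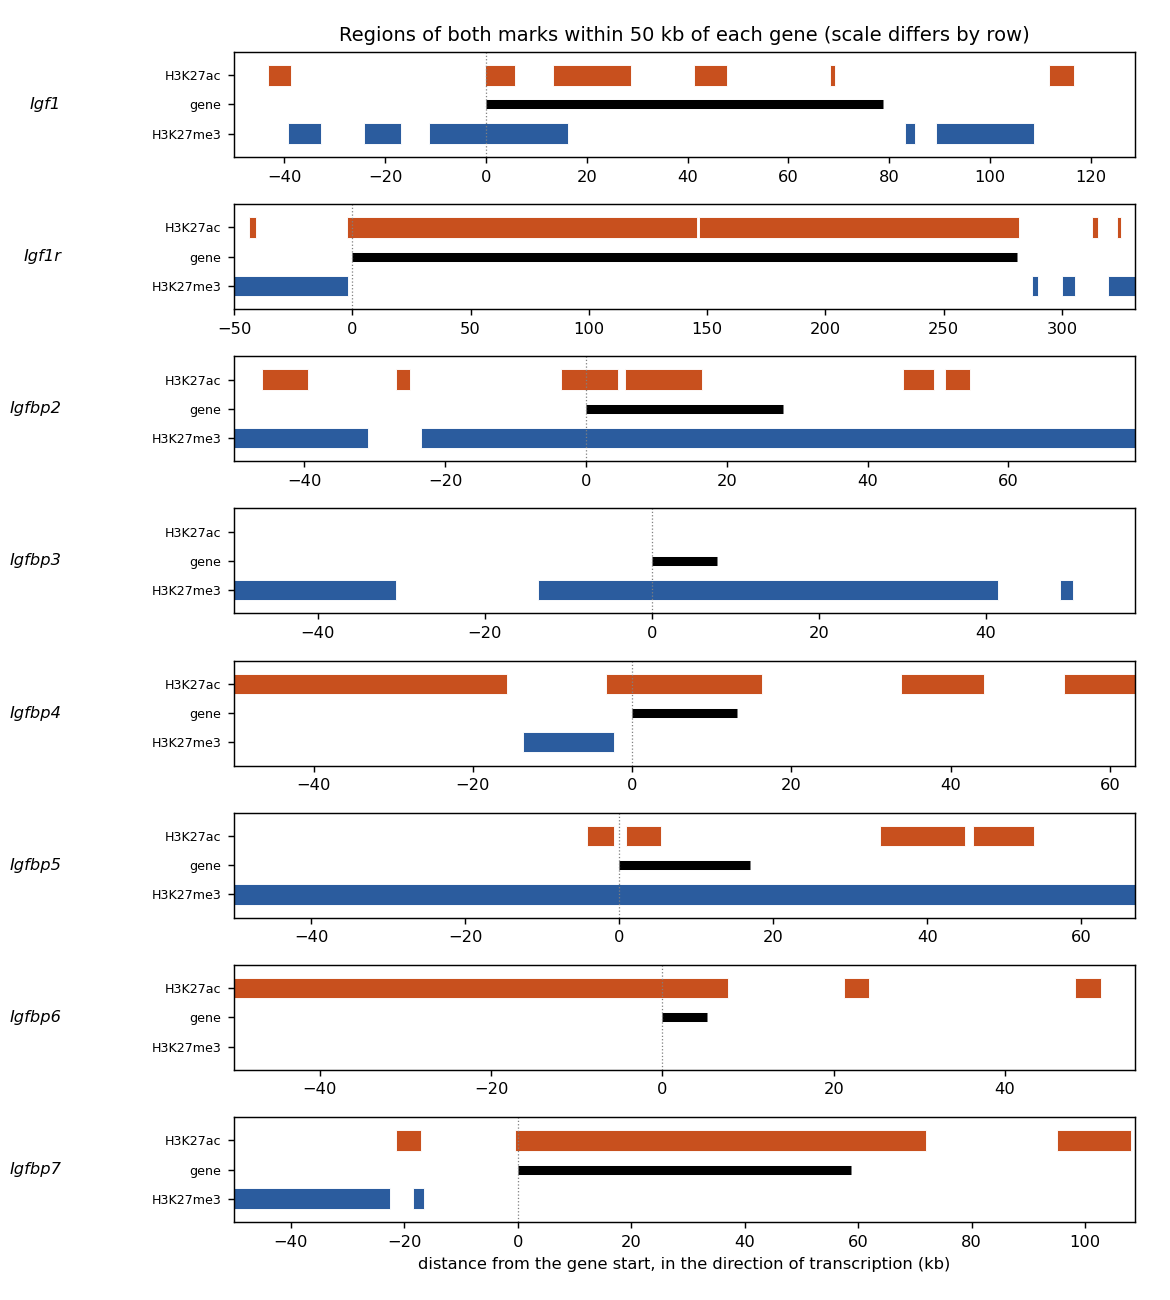
H3K27ac regions (orange), gene bodies (black) and H3K27me3 regions (blue) of the 8 genes against the distance from the gene start in kb, in the direction of transcription, with a scale of its own for each gene and regions cut off at the edge of the window. Igfbp4, Igfbp6 and Igfbp7 lie wholly under H3K27ac, Igf1r does so but for a gap of 1 kb, Igfbp3 has no H3K27ac region, Igfbp6 has no H3K27me3 region, and Igfbp2 and Igfbp5 lie in 1 H3K27me3 region.

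Of the 27 H3K27ac regions of the members, 14 (51.9%) overlapped an H3K27me3 region, against 15.7% of all H3K27ac regions. Of the 17 H3K27me3 regions, 8 (47.1%) overlapped an H3K27ac region, against 14.9% of all H3K27me3 regions. Any overlap counted, down to 0.5 kb for the 148 kb H3K27ac region of Igf1r, and 4 of the H3K27ac regions lay in the 1 H3K27me3 region of Igfbp2 and Igfbp5. Member regions were also longer, with a median of 6.5 against 4.0 kb for H3K27ac and 16.5 against 10.5 kb for H3K27me3. The windows were chosen around genes, so the wider set is not a matched one.

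The DNA before the start differed between these promoters in its number of CpG dinucleotides, a C followed by a G. In the 250 bases before the RefSeq start (GRCm38.p6, all 8 genes matched, 9 starts), Igf1r held 42 CpGs, Igfbp3 32, Igfbp7 26 and Igfbp4 22, against a median of 6 over 32851 promoters. The first start of Igfbp2 held 14, Igfbp5 10, Igfbp6 7 and Igf1 5. Thus the H3K27me3-only promoter of Igfbp3 and the H3K27ac-only promoter of Igf1r were both rich in CpGs, while the window of Igf1 was below the median of all promoters. The RefSeq start of Igf1 lies downstream of the first GENCODE start, inside the H3K27ac and H3K27me3 regions over that start. The following 4 promoters are shown because they span the arrangements, from H3K27ac alone at Igf1r and Igfbp7 through both marks at Igfbp2 to H3K27me3 alone at Igfbp3. Each is written 5′ to 3′ on the strand of its gene with CpGs in capitals. They are Igf1r at chr7:67952007-67952256 (plus strand), Igfbp7 at chr5:77408046-77408295 (minus strand), Igfbp2 at chr1:72824230-72824479 (plus strand) and Igfbp3 at chr11:7213924-7214173 (minus strand).
Igf1r: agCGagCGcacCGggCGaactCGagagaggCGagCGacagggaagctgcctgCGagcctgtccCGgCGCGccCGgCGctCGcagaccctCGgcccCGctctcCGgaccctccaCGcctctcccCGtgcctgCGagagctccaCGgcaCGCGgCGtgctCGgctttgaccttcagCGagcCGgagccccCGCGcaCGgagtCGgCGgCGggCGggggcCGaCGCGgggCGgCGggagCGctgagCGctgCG
Igfbp7: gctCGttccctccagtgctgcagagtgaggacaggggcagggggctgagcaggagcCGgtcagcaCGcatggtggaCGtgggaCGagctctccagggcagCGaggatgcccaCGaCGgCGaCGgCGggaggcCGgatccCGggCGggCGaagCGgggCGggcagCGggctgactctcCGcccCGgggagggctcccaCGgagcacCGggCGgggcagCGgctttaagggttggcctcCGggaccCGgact
Igfbp2: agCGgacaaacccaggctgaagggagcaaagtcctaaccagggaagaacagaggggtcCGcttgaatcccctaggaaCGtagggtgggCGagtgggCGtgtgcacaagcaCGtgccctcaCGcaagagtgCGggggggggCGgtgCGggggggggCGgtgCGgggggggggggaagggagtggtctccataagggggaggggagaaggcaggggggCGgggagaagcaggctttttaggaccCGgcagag
Igfbp3: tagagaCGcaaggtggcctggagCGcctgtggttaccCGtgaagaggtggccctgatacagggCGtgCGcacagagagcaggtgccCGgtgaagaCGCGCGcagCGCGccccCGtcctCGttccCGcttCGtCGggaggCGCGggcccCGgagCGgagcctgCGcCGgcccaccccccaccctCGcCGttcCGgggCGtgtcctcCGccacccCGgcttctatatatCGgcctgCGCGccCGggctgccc
The GC box GGGCGG, on either strand, occurred 4 times before Igfbp7, 3 times before Igfbp2 and 2 times before Igf1r, and at 32.7% of all promoters. TATAAA occurred before Igfbp4 and Igfbp6 and at 12.4% of all promoters, and CCAAT before Igf1 and Igfbp6 and at 33.8%. None of the 3 motifs was found in the window of Igfbp3.

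The first question was whether either mark differed between old and young cells at these genes. Limma with Benjamini-Hochberg adjustment over all regions of a table was used for each mark. Among the 27 H3K27ac regions of the members 0 passed an adjusted p of 0.05, against 0.0822% of all 31617 regions. At an unadjusted p under 0.05, 2 did (7.41%, against 9.6% of all regions), and edgeR and DESeq2 on the recovered reads also called 0. Among the 17 H3K27me3 regions 1 passed (5.88%), against 0.488% of all 28047 regions, and it was lower in old cells, as were 0.406% of all regions. That region was also the 1 with an unadjusted p under 0.05, against 13.9% of all H3K27me3 regions.

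The differences were small. The median log2 fold change (old over young) of the member regions was 0.05 for H3K27ac and -0.01 for H3K27me3, against 0.00 and -0.01 over all regions. The absolute log2 fold change had a median of 0.09 for the H3K27ac regions and 0.09 for the H3K27me3 regions, against 0.19 and 0.16 over all regions. Member regions were also longer, with a median of 6.5 against 4.0 kb for H3K27ac and 16.5 against 10.5 kb for H3K27me3. The sets were not matched for length or reads. Of the H3K27ac regions 16 had a positive and 11 a negative value, and 6 were positive with the values as deposited. Of the H3K27me3 regions 8 had a positive and 9 a negative value, and 5 were positive as deposited. All 3 old libraries lay on 1 side of all 3 young ones at 2 H3K27ac regions (7.41%, against 14.5% of all) and at 2 H3K27me3 regions (11.8%, against 19.1% of all).

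**Figure D2:**
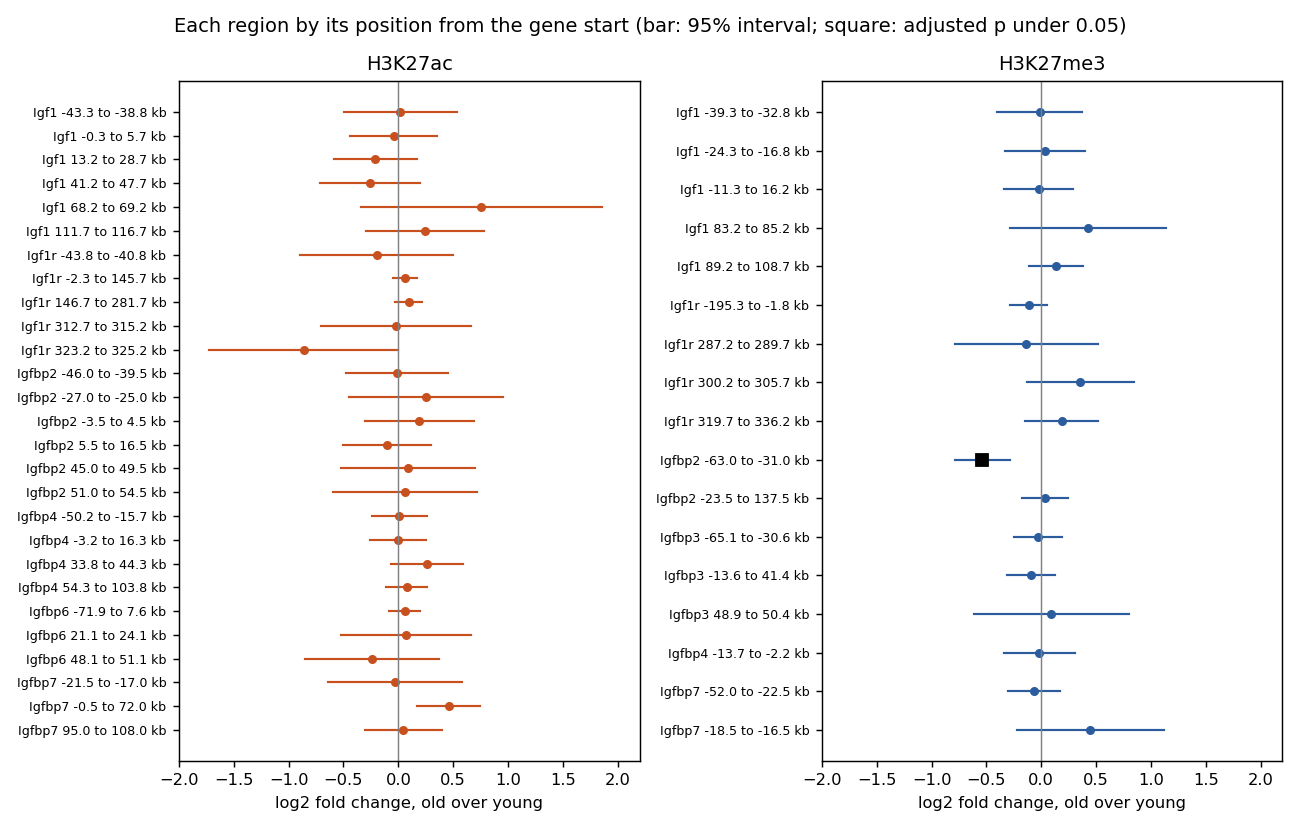
Log2 fold change of old over young with its 95% interval for the 27 H3K27ac (left) and 17 H3K27me3 (right) regions, each named by its distance in kb from the gene start. The black square marks the only region with an adjusted p under 0.05, the H3K27me3 region upstream of Igfbp2, and the widest intervals belong to short regions with few reads.

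Signals were then summed for each gene over all regions that reached into its window, each region taken at its full length. Parts of a region outside the window therefore count. The Igf1r H3K27me3 regions covered 218 kb in all, but only 17.7% of its 380.8 kb window. None of the 7 genes with H3K27ac regions passed an adjusted p of 0.05, against 0.684% of 17248 gene loci, and 1 (Igfbp7) had an unadjusted p under 0.05, against 12.1% of all loci. None of the 7 genes with H3K27me3 regions passed, against 0.436% of 17445 loci, and 0 had an unadjusted p under 0.05, against 14.4% of all loci. EdgeR and DESeq2 on the recovered reads called 0 in either mark. The old and young libraries did not overlap at 1 of the 7 H3K27ac loci (Igfbp7), beside 16.6% of all H3K27ac loci. They did not overlap at 0 of the 7 H3K27me3 loci, beside 19.5% of all H3K27me3 loci. With 7 loci per mark, and regions shared between Igfbp2 and Igfbp5, these counts are too small to set the members apart from all loci.

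**Figure D3:**
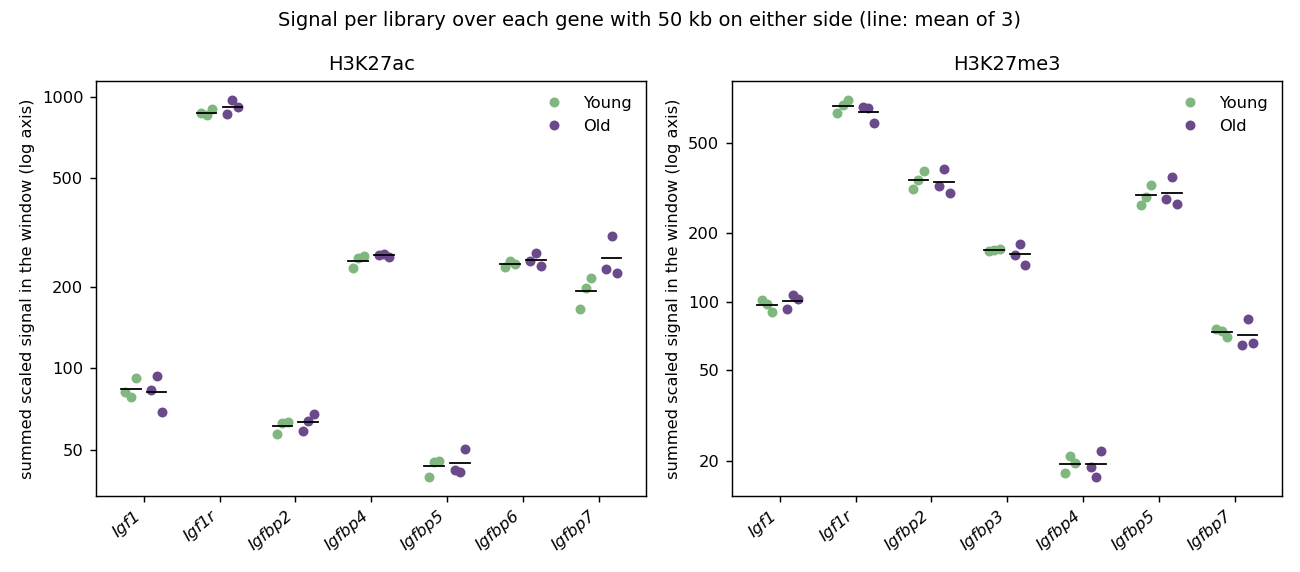
Summed scaled signal of the H3K27ac (left) and H3K27me3 (right) regions that reach into the window of each gene, at their full length. The axis is a log axis, with 1 point per library and the mean of 3 as a line. Young and old points interleave at each gene in both panels apart from Igfbp7 in H3K27ac, where the 3 old libraries lie above the 3 young ones.

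Per kb of region, H3K27ac in young cells was highest over Igf1r (3.01 ± 0.08, SD, n = 3) and Igfbp6 (2.83 ± 0.07). It was followed by Igfbp4 (2.19 ± 0.11), Igf1 (2.18 ± 0.18) and Igfbp7 (2.14 ± 0.28), which did not differ beyond their spread, and then by Igfbp2 (1.72 ± 0.10) and Igfbp5 (1.61 ± 0.12). In old cells the order was Igf1r (3.16 ± 0.19), Igfbp6 (2.93 ± 0.16), Igfbp7 (2.83 ± 0.52), Igfbp4 (2.29 ± 0.03), Igf1 (2.13 ± 0.32), Igfbp2 (1.78 ± 0.13) and Igfbp5 (1.66 ± 0.18). H3K27me3 per kb in young cells was highest over Igf1r (3.32 ± 0.22), through the long region upstream of it, and Igfbp7 (2.33 ± 0.10), and lowest over Igf1 (1.53 ± 0.09). Igfbp3 (1.86 ± 0.01), Igfbp5 (1.83 ± 0.19), Igfbp2 (1.78 ± 0.17) and Igfbp4 (1.70 ± 0.15) lay between them and did not differ beyond their spread. These levels include regions of neighbouring genes that reach into a window, and the parts of regions that lie beyond it.

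Igf1, the ligand, lies on the plus strand of chromosome 10 (87858265-87937042) with no other protein-coding gene inside its window. The H3K27ac region over its TSS (chr10:87858001-87864000, over an exon and UTR) lay inside an H3K27me3 region (chr10:87847001-87874500). H3K27ac of this region was 19.9, 16.7 and 17.1 in young replicates 1 to 3 and 15.9, 17.3 and 18.9 in old ones. The groups overlapped, and the log2 fold change was -0.04 (95% interval -0.44 to 0.35, limma adjusted p = 0.968). H3K27me3 over the TSS was 36.5, 34.4 and 25.9 in young cells and 26.6, 35.3 and 33.0 in old cells. This mark overlapped between the groups as well, with a log2 fold change of -0.02 (-0.34 to 0.29, adjusted p = 0.964).

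Igf1 held 3 further H3K27ac regions in its introns, at 13.2 to 28.7 kb, 41.2 to 47.7 kb and 68.2 to 69.2 kb from the TSS. The first measured 28.1, 25.4 and 32.2 in young cells against 31.9, 27.5 and 16.8 in old cells, and the second 13.7, 15.6 and 16.1 against 11.2, 16.5 and 10.7. Their log2 fold changes were -0.21 (-0.59 to 0.17) and -0.26 (-0.71 to 0.20), with the groups overlapping at both. The third had the smallest p of the Igf1 window but only between 1 and 13 reads per library, with a log2 fold change of 0.76 (-0.34 to 1.86, adjusted p = 0.699). In H3K27me3 the smallest p of the window belonged to a 2.0 kb region downstream of the gene, at a log2 fold change of 0.42 (-0.29 to 1.13, adjusted p = 0.625). Over the whole window H3K27ac summed to 84.1 ± 6.9 in young and 81.9 ± 12.4 in old cells (SD, n = 3), and H3K27me3 to 96.7 ± 5.8 and 100.8 ± 7.0.

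The genes whose H3K27ac locus values followed those of Igf1 most closely over the 6 libraries, among 17247 genes sharing no region with it, were Tmem178 (Pearson r = 0.99), Nox4 (0.98) and Scd1 (0.98). For H3K27me3 they were Zfp787 (0.99), Bpifb1 (0.99) and Olfr1378 (0.99) among 17444 genes. In all, 23 and 33 genes passed a correlation of 0.95, and with 6 libraries such values are a description of these libraries only.

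Igf1r, the receptor, occupies 280.8 kb of the plus strand of chromosome 7 (67952827-68233668), and nearly the whole gene was under H3K27ac. A region of 148 kb (chr7:67950501-68098500) began 2.33 kb upstream of the TSS and a region of 135 kb (chr7:68099501-68234500) covered the rest to past the 3′ end. They lay at the 99.8 and 99.7 percentile of length among all H3K27ac regions. The first measured 460, 475 and 478 in young cells and 467, 519 and 488 in old cells, and the second 395, 362 and 400 against 383, 436 and 418. Both overlapped between the groups, and their log2 fold changes were 0.06 (-0.05 to 0.17, adjusted p = 0.777) and 0.09 (-0.03 to 0.22, adjusted p = 0.661). With 554 to 1452 reads per library in each, these were the narrowest intervals of the H3K27ac regions of the members.

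The receptor gene was bounded by H3K27me3 on its upstream side. A region of 193.5 kb (chr7:67757501-67951000), which also covers the TSS of the intermediate filament gene Synm, overlapped the Igf1r H3K27ac region by 0.5 kb and ended 1.83 kb before the TSS. It had the highest signal per kb of the H3K27me3 regions of the members, at the 98.4 percentile of all regions. Its values were 640, 691 and 741 in young cells and 678, 663 and 575 in old cells, which overlapped (log2 fold change -0.11, -0.28 to 0.06, adjusted p = 0.566). Inside the gene body no H3K27me3 region was present. The H3K27me3 region with the smallest p of the window lay in Pgpep1l, 300.2 kb from the Igf1r TSS, at a log2 fold change of 0.36 (-0.13 to 0.84, adjusted p = 0.520).

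Downstream of Igf1r, a 2.0 kb H3K27ac region in Fam169b (chr7:68276001-68278000) measured 3.59, 5.19 and 5.59 in young cells and 1.99, 1.57 and 4.08 in old cells. The groups overlapped, since old replicate 3 lay above young replicate 1, and each library held only 2 to 17 reads there. The log2 fold change was -0.86 (-1.72 to -0.00) with an unadjusted limma p of 0.0499 and an adjusted p of 0.521.

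Igfbp2 and Igfbp5, on opposite strands of chromosome 1 with their 3′ ends facing each other, shared 1 H3K27me3 region of 161 kb (chr1:72801001-72962000) that covered both genes and both TSSs. IGFBP2 and IGFBP5 are secreted carriers, and IGFBP5 is abundant in bone matrix. The region measured 266, 290 and 327 in young cells and 284, 353 and 268 in old cells. The groups overlapped, with a log2 fold change of 0.03 (-0.18 to 0.24, adjusted p = 0.924). Inside it lay 4 H3K27ac regions that overlapped it along their whole length. The 1 over the Igfbp2 TSS (chr1:72821001-72829000) measured 8.17, 14.4 and 10.9 in young cells and 11.6, 11.0 and 15.3 in old cells, with a log2 fold change of 0.19 (-0.31 to 0.69, adjusted p = 0.855).

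The Igfbp5 TSS (72874884) itself lay in a gap between the H3K27ac regions on either side of it, which ended 0.88 kb downstream (chr1:72869501-72874000) and began 0.62 kb upstream (chr1:72875501-72879000). The upstream 1 measured 5.55, 5.77 and 5.26 in young cells and 4.38, 7.86 and 5.61 in old cells, with the old libraries on both sides of the young ones and a log2 fold change of 0.06 (-0.59 to 0.72, adjusted p = 0.974). All 4 regions within the H3K27me3 region were faint, with a signal per kb between the 4.30 and 20.0 percentile of all H3K27ac regions.

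Further upstream of Igfbp2, the only member region that passed the test was a 32 kb H3K27me3 region between genes (chr1:72761501-72793500), 31.0 to 63.0 kb before the Igfbp2 TSS and overlapping no protein-coding gene. It measured 46.2, 51.5 and 50.0 in young cells and 38.0, 31.3 and 32.3 in old cells, from 55 to 256 reads. Every old library lay below every young one. The log2 fold change was -0.54 (SE 0.12, 95% interval -0.79 to -0.28), or 0.689 times the young signal, with a limma adjusted p of 0.0491. The adjusted p was close to the threshold: of 16 alternatives the value was negative in all, and 10 gave an adjusted p at or above 0.05, up to 0.241. DESeq2 on the recovered reads gave 0.110 and edgeR 0.0249. An H3K27ac region of 6.5 kb inside it (chr1:72778501-72785000) measured 13.4, 11.5 and 14.1 in young cells and 11.6, 16.5 and 11.2 in old cells, which overlapped (log2 fold change -0.01, -0.47 to 0.45).

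**Figure D4:**
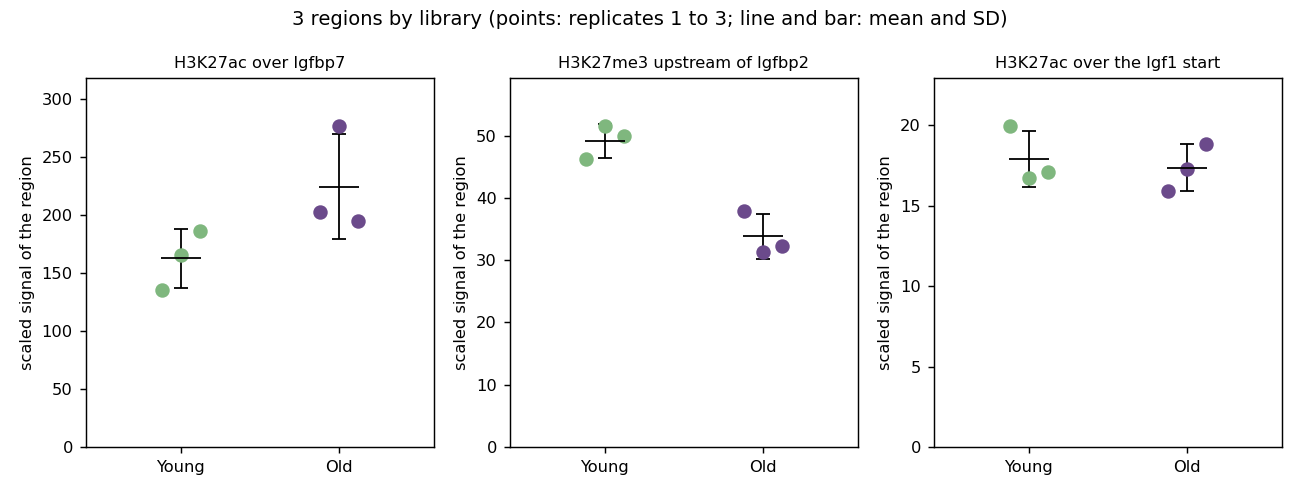
Scaled signal per library of 3 regions: H3K27ac over Igfbp7 (left), H3K27me3 upstream of Igfbp2 (middle) and H3K27ac over the Igf1 TSS (right), with points for replicates 1 to 3 and the mean with its SD. Old libraries lie above young ones for Igfbp7, below them upstream of Igfbp2, and among them for Igf1.

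Igfbp3, which encodes the main carrier of IGF1 in blood plasma, had no H3K27ac region in its window. Its TSS lay in a 55 kb H3K27me3 region (chr11:7172501-7227500) that also covers the TSSs of Igfbp1 and Gm11985. That region measured 112, 108 and 111 in young cells and 102, 121 and 88.4 in old cells. The old libraries spread more widely than the young ones and lay on both sides of them, with a log2 fold change of -0.09 (-0.31 to 0.13, adjusted p = 0.743). A second region of 34.5 kb, 30.6 kb or more upstream, measured 54.1, 59.8 and 55.7 against 55.4, 56.9 and 53.6 (log2 fold change -0.03, -0.25 to 0.19).

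Igfbp4, a carrier that mostly restrains IGF action, was covered by a 19.5 kb H3K27ac region (chr11:99038001-99057500) from upstream of its TSS to past its 3′ end. It measured 47.0, 55.4 and 55.9 in young cells and 46.2, 56.6 and 55.0 in old cells, and the groups overlapped. The log2 fold change was -0.01 (-0.26 to 0.25, adjusted p = 0.995). The H3K27me3 region that ended before the promoter (chr11:99027501-99039000) measured 17.8, 21.1 and 19.6 against 18.8, 17.1 and 22.2 (log2 fold change -0.02, -0.34 to 0.31, adjusted p = 0.976). A region in the neighbouring gene Tns4 (chr11:99075001-99085500) had the smallest p of the H3K27ac regions in the window. It measured 23.5, 27.7 and 23.0 in young cells and 28.7, 30.7 and 29.6 in old cells, every old library above every young one. Its log2 fold change of 0.26 (-0.07 to 0.59) had an adjusted p of 0.649.

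Igfbp6, whose product prefers IGF2 over IGF1, sat at the end of a 79.5 kb H3K27ac region (chr15:102072501-102152000) that also covers the TSSs of Eif4b, Tns2, Spryd3 and Soat2, so its signal cannot be assigned to Igfbp6 alone. The region measured 225, 228 and 226 in young cells and 236, 246 and 224 in old cells. Old replicate 3 lay below all young libraries and the other two above them, with a log2 fold change of 0.06 (-0.08 to 0.20, adjusted p = 0.850). No H3K27me3 region lay in the window.

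Igfbp7, which encodes a secreted protein that binds IGFs weakly and lies in the matrix around vessels and stroma, showed the largest H3K27ac difference of the loci. A 72.5 kb H3K27ac region (chr5:77336001-77408500) covered the whole gene from 0.46 kb upstream of its TSS and reached into the 3′ end of Polr2b. It measured 136, 166 and 186 in young cells and 202, 276 and 195 in old cells. All old libraries lay above all young ones, the closest pair being young replicate 3 and old replicate 3. The log2 fold change was 0.46 (SE 0.13, 95% interval 0.17 to 0.75, unadjusted p = 0.00476), a fold of 1.37, but the limma adjusted p over all regions was 0.265. Without old replicate 2, the highest value and the shallowest library, the log2 fold change was 0.30 (adjusted p = 0.327).

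The difference at Igfbp7 was not seen at the promoter next to it. The H3K27ac region over the TSSs of Noa1 and Polr2b measured 21.6, 24.2 and 23.0 in young cells and 23.5, 23.6 and 24.0 in old cells (log2 fold change 0.05, -0.30 to 0.39). Upstream of Igfbp7, a 2.0 kb H3K27me3 region 16.5 kb from the TSS measured 3.36, 3.02 and 1.57 against 3.49, 3.98 and 3.49 from 6 to 17 reads. All old values were higher there, with a log2 fold change of 0.45 (-0.22 to 1.12) and an adjusted p of 0.568. A longer H3K27me3 region of 29.5 kb beyond it measured 72.5, 71.6 and 68.3 against 61.3, 80.2 and 62.8 and overlapped (log2 fold change -0.07, -0.30 to 0.17). Summed over the window, H3K27ac of Igfbp7 had a log2 fold change of 0.40 (SE 0.12, adjusted p = 0.156), and 0.25 (adjusted p = 0.404) without old replicate 2. Without old replicate 3 it was 0.49 and passed the test (adjusted p = 0.00359). Of 18 alternatives for the locus 2 passed and 16 did not, among them DESeq2 on the recovered reads (adjusted p = 0.823). For the region over the gene 1 of 16 alternatives passed.

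The balance of the marks was taken as the log2 of the summed H3K27ac minus the log2 of the summed H3K27me3, for the libraries of a replicate number. The sums were those of whole regions that reach into the window. The tables of the marks were scaled separately, so its zero has no meaning of its own and no test was made. Because it compares sums, its level in a gene also follows the length covered by each mark, and only the difference between the groups was compared. It could be formed for 6 members and 15661 genes. Igfbp7 measured 1.12, 1.39 and 1.62 in young and 1.83, 1.87 and 1.75 in old cells, a mean difference of 0.44 with no overlap. Among all genes 19.3% did not overlap, and the median difference was 0.06. Within 20 kb of the gene, where only the short H3K27me3 region remains, the Igfbp7 difference was -0.01.

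At the other 5 genes the balance overlapped between the groups. Igf1 measured -0.31, -0.31 and 0.02 in young and -0.16, -0.19 and -0.57 in old cells, with a mean difference of -0.11 that ranged from -0.18 to 0.03 when 1 replicate of a group was left out. Igf1r measured 0.36, 0.23 and 0.23 against 0.27, 0.46 and 0.60, with a mean difference of 0.17 (0.09 to 0.26). Igfbp4 measured 3.64 ± 0.07 in young and 3.73 ± 0.21 in old cells (SD, n = 3), with 114 kb under H3K27ac and 11.5 kb under H3K27me3. Igfbp2 measured -2.48 ± 0.07 and -2.39 ± 0.23, with 35.5 kb against 193 kb, and Igfbp5 -2.74 ± 0.08 and -2.73 ± 0.33, with 27 kb against 161 kb. The mean differences of these 3 genes crossed 0 when a replicate was left out, from -0.01 to 0.19 for Igfbp4, from -0.04 to 0.18 for Igfbp2 and from -0.16 to 0.17 for Igfbp5, whereas that of Igfbp7 stayed between 0.31 and 0.56.

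**Figure D5:**
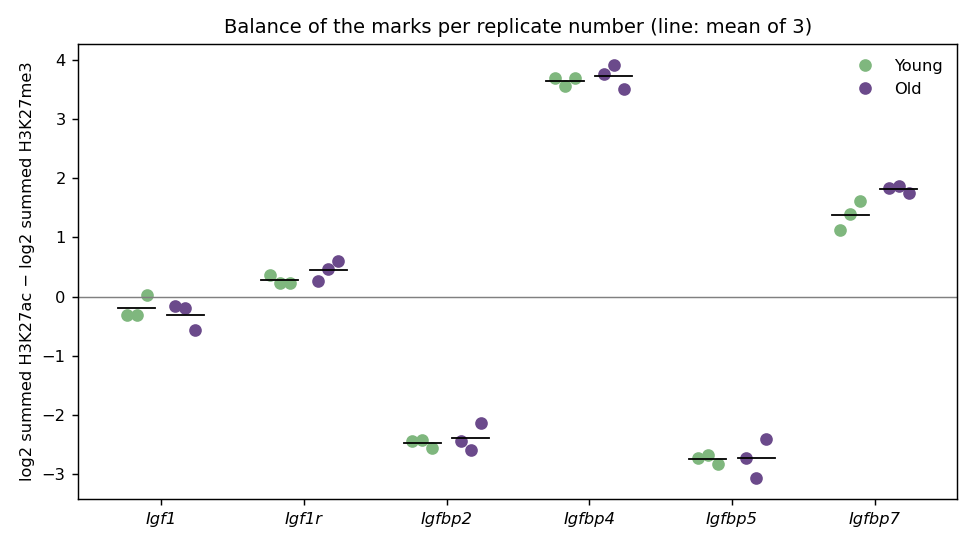
Log2 summed H3K27ac minus log2 summed H3K27me3 over the whole regions that reach into the window of each of 6 genes. There is 1 point per replicate number, with the mean of 3 as a line. Old points lie above young ones at Igfbp7 (1.75 to 1.87 against 1.12 to 1.62), and the groups overlap at the other 5 genes.

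Other genes of the pathway were taken from a list of 31. It held further ligands, receptors and binding proteins, and the proteases and stanniocalcins that act on the carriers. The growth hormone axis and the insulin receptor substrate, PI3 kinase and Akt branch were included. So were Igf2bp1, Igf2bp2, Igf2bp3, Grb2, Shc1, Sos1, Grb10 and Mtor. Igfbp1 in this list had the same H3K27me3 regions and values as the member Igfbp3. Of the 29 with H3K27ac regions 0 passed an adjusted p of 0.05 in limma, edgeR or DESeq2, against 0.684% of all H3K27ac loci in limma, and 7 (24.1%) had an unadjusted limma p under 0.05, against 12.1% of all loci. Of the 31 with H3K27me3 regions 0 passed in these tools, against 0.436% of all H3K27me3 loci in limma, and 3 (9.68%) had an unadjusted limma p under 0.05, against 14.4% of all loci. With the values as deposited 1 passed in limma (Jak2, a kinase of the growth hormone axis, lower in old cells, adjusted p = 0.0323), against 3.57% of all loci. The median log2 fold change was 0.05 for H3K27ac and -0.04 for H3K27me3, against 0.03 and -0.04 over all loci. The smallest adjusted p belonged to H3K27ac over Igf2r, the receptor that clears IGF2, named after its values were seen. Its locus summed to 94.3 ± 3.2 in young and 120.2 ± 7.7 in old cells, a log2 fold change of 0.35 (SE 0.09, limma adjusted p = 0.0564). For H3K27ac the lowest adjusted p of any listed gene was 0.0507 in edgeR and 0.426 in DESeq2. It was 0.612 in limma on the values as deposited.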

How the data were processed

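CUT&RUN libraries of H3K27ac and H3K27me3 from MSCs of young and old mice were analysed, with 3 libraries per group and mark. Per the submitters' processing notes, reads were aligned to mm10 (GRCm38) with Bowtie2 and processed with Picard, with no versions given, and the caller of the regions is not given in the sources used here. The authors deposited 1 table per mark with a coverage signal for each region and library. The tables are named for RPKM, but 100% of the deposited values were whole multiples of the smallest value of their library (tolerance 0.01 of it). That value was taken as 1 read, so the reads could be recovered. The values were thus scaled by a constant for each library and not by the length of the region. The constant was taken as the reads of the library and 0.5 kb, and the library totals rest on this. The region names also hold a call of old, young or both by the authors, which was not used. All 12 sample columns were used and 0 were left out.

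After division by median-ratio (RLE) factors the signal was taken to log2 with a pseudocount of 0.5, and limma (3.58.1, trend and robust) compared old with young, over all regions or over sums of regions per protein-coding gene with 50 kb on either side (GENCODE vM21 basic). A count test had not been planned, since RPKM values were assumed, and limma was kept. EdgeR (4.0.16) and DESeq2 (1.42.0) on the recovered reads were alternatives, as were other scalings and pseudocounts, a filter on the lowest signals, windows of 20 and 0 kb, leaving out each library and a replicate block. P-values are two-sided and adjusted by the Benjamini-Hochberg method over all features, with 0.05 as the threshold. The scripts were tested on simulated data.

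The genes and lists were chosen with earlier results of these data known. For each gene and mark the text names the region over (or else nearest to) its TSS, the region with the smallest p and each region called. No cells or regions were resampled, and the yeast DNA added in the protocol was not analysed here. Reads without molecular identifiers are not independent molecules, so the precision given by the 1 to 3433 reads per region and library covers these libraries only.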

Additional observations from a re-analysis of the deposited data

How the results depend on the processing

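The call upstream of Igfbp2 kept its direction under the 16 alternatives that gave it a value and was lost under 10. The number of member H3K27me3 regions called went from 1 to 0 with TMM scaling, equal column sums, a pseudocount of 0.1, a filter on the lowest signals, limma without trend and robust settings, DESeq2 on reads, and windows of 20 or 0 kb. The narrower windows leave the region out. With the filter 21035 regions were tested in place of 28047, and this region kept its log2 fold change of -0.54 with a limma adjusted p of 0.0590. Apart from the narrower windows, the cause of each loss was not tested. Leaving out 1 library gave 0 to 1 calls, with an adjusted p of 0.0354 to 0.241 for this region. It was lost without any 1 of the young libraries (0.241, 0.226 and 0.240) or old replicate 3 (0.0748). For H3K27ac, leaving out 1 library gave 0 to 0 member regions.

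Replicate numbers showed no clear pairing of the samples. The correlation of same-numbered young and old libraries lay between -0.05 and 0.07 for H3K27ac and between -0.08 and 0.04 for H3K27me3. Not every library correlated best with its own number. Many regions held few reads (a median of 12 in H3K27ac of old replicate 2), so these correlations could not exclude a pairing. With the replicate block, 1 H3K27ac member region was called, the region over Igfbp7 (adjusted p = 0.0163), the Igfbp7 locus passed as well (0.00943), and the Igfbp2 region had an adjusted p of 0.0391. The Igfbp7 locus also passed without old replicate 3 (0.00359). It did not pass under the other 16 of 18 alternatives, and the region over Igfbp7 did not pass under 15 of 16.

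Over all H3K27ac regions 26 were called, against 105 as deposited (16 higher and 89 lower, in place of 10 and 16), 14 and 63 with pseudocounts of 0.1 and 2, 0 with limma without trend and robust (2661 at an unadjusted p under 0.05), 96 by edgeR, 6 by DESeq2, 81 with the block and 2 to 45 with 1 library left out. For H3K27ac loci 118 became 37 as deposited (3 higher and 34 lower, in place of 71 and 47), 13, 37 by DESeq2 and 22 to 275. For H3K27me3 regions 137 became 774 as deposited (21 higher and 753 lower, in place of 23 and 114), 67 with equal column sums, 71 with a pseudocount of 0.1, 81 with the filter, 35 with plain limma, 394 by edgeR, 87 by DESeq2, 309 with the block and 10 to 313. For H3K27me3 loci 76 became 623 as deposited, 49 with the filter, 10 with plain limma, 116 by edgeR, 141 by DESeq2 and 23 to 194. With 5 kb around the TSS, 2 promoters carried H3K27ac only and 5 both marks.

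Log2 fold changes near 0 changed sign, none of them past the threshold. As deposited, H3K27ac turned at the loci of Igf1r (-0.049), Igfbp2 (-0.069), Igfbp4 (-0.054), Igfbp5 (-0.080) and Igfbp6 (-0.072) and at the TSS regions of Igf1r (-0.059) and Igfbp6 (-0.063), and H3K27me3 turned at the loci of Igf1 (-0.062) and Igfbp5 (-0.091) and the TSS region of Igfbp2 (-0.091). Equal column sums turned H3K27me3 at the loci of Igfbp2 (0.0094), Igfbp4 (0.028) and Igfbp7 (0.0028) and the Igf1 TSS (0.021), and edgeR and DESeq2 turned Igfbp4 (0.0064 and 0.0023). Windows of 0 kb turned H3K27ac at Igfbp4 (-0.0053) and H3K27me3 at Igf1 (-0.024) and Igfbp2 (0.032). Windows of 20 kb turned H3K27ac at Igfbp5 (-0.0097) and H3K27me3 at Igfbp2 (0.032) and Igfbp7 (0.45), where 1 short region remains, and moved the Igfbp7 balance to -0.0089.

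Leaving out 1 library moved H3K27ac at the loci of Igf1 (-0.15 to 0.074) and Igfbp5 (-0.049 to 0.087) and the TSS regions of Igf1 (-0.10 to 0.033), Igfbp2 (-0.0041 to 0.39) and Igfbp4 (-0.086 to 0.085) across 0. It did the same for H3K27me3 at the loci of Igfbp2 (-0.14 to 0.042), Igfbp3 (-0.15 to 0.010), Igfbp4 (-0.11 to 0.069), Igfbp5 (-0.085 to 0.11) and Igfbp7 (-0.16 to 0.025) and the TSS regions of Igf1 (-0.17 to 0.093), Igfbp2 (-0.085 to 0.11) and Igfbp3 (-0.21 to 0.018). Depth limited the short regions most: several held under 20 reads per library, and their intervals were wide. These intervals are not limits of detection, since a call rested on the adjusted p over all regions.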
